A study of Mus musculus with 8 samples.

Results

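The 1000 regions described here are stretches of open chromatin that early T-cell progenitors kept in every library but that stood lowest relative to controls in cells with floxed genes for the transcription factors TCF1 and LEF1. They were chosen from mouse ATAC-seq, an assay in which a transposase inserts adapters where DNA is accessible. Peaks that touched by at least 1 bp in any of the 4 ATAC lists were merged into 134830 regions, of which 79684 held a peak in all 4 libraries and are called shared. For each library the tallest peak's fold enrichment over background, as the authors' peak caller gave it, was put on a log2 scale and centred on that library's median over the shared regions. The members are the 1000 shared regions with the lowest mean of knockout minus mean of control among those where both knockout values lay below both control values. Their ATAC values therefore chose them, and those values are given as a description with no test. The messenger RNA of nearby genes was measured in other libraries and played no part in the choice.

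The cells came from LSK cells, the stem and progenitor fraction of mouse bone marrow, cultured on OP9-DL1, a stromal line that presents the Notch ligand Delta-like 1 and pushes progenitors towards T cells. Controls were CreER+ with wild-type alleles, and knockouts were CreER+ with floxed Tcf7 and floxed Lef1. Both groups received 4-OH tamoxifen from day 3 to day 5 and were sorted on day 7 as lineage-negative, CD4-, CD8-, CD44-high, CD25-, c-Kit+ cells, the first stage of thymocyte-like development. There were 2 control and 2 knockout libraries for each assay. The labels name no promoter for CreER and no animal age. Nor do they tell if the replicates were different mice or different cultures, so p-values measure the spread between these libraries, which may be technical. The culture on a stromal line also means that the sorted cells could carry some stromal RNA.

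TCF1, encoded by Tcf7, and LEF1 are closely related DNA-binding proteins that recognise the same short word through an HMG domain. In the thymus TCF1 is switched on by Notch signalling, binds closed as well as open chromatin, and is followed by Gata3 and Bcl11b, which carry progenitors into the T lineage. Enhancers, the distal stretches that such factors occupy, are usually recognised by their openness and can act on genes over long distances. In these libraries Tcf7 RNA was 518 and 510 in controls, in the length-scaled unit TPM, and 13.2 and 12.4 in knockouts. Lef1 was scarce throughout, at 1.66 and 1.10 TPM in controls and 1.46 and 1.57 in knockouts, so its RNA does not separate the groups and gives no check of its deletion, and the word knockout is used here as the labels use it.

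Sequence could be read for the few members that cover the stretch just before an annotated gene start, from RefSeq promoter windows of the GRCm38.p6 build, which is the same assembly as the mm10 of the peak lists. The TCF/LEF word, searched on both strands, was CTTTG followed by AA, AT, TA or TT. The word of RUNX, a partner factor of blood cells, was TGTGGT in one form and TGCGGT in another. These 3 stretches are shown because the first pair hold the TCF/LEF words found in the set and the last belongs to the most strongly weakened region with such a stretch. All precede starts of long noncoding RNAs, run 5′ to 3′ on the strand of that RNA, and have TCF/LEF and RUNX words in capitals.
Gm41168, chr14:61056555-61056761, plus strand: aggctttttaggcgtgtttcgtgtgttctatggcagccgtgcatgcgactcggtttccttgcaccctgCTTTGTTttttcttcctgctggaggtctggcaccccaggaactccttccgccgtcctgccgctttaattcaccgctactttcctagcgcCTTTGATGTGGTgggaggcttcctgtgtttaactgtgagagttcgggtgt
Gm41043, chr13:101548153-101548288, minus strand: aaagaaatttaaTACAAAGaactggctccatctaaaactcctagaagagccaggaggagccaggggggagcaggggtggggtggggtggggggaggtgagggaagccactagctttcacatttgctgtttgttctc
Gm29985, chr2:38988352-38988525, minus strand: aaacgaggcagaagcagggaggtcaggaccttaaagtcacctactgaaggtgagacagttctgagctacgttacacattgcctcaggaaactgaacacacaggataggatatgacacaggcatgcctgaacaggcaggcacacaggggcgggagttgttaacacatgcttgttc

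The Gm41168 stretch holds 2 TCF/LEF words, the second of which runs into a RUNX word by sharing its final base. Its region had fold enrichments of 19.0 and 18.5 in controls and 7.97 and 9.86 in knockouts. Gm41043 holds 1 TCF/LEF word, read here on the opposite strand, in a region at 14.7 and 14.7 in controls and 7.43 and 8.80 in knockouts. This stretch also overlaps the extent of Gm36475. Gm29985 holds none of the TCF/LEF or RUNX words and stood at 21.5 and 22.1 against 6.66 and 6.53, the widest gap of the 3. Among the 11 members with such an upstream stretch, 2 held a TCF/LEF word inside the region, or 18.2% with an exact Clopper-Pearson 95% interval of 2.28 to 51.8%, against 1004 of 13802 stretches (7.27%) under all shared regions. Chosen again without one ATAC library, the members gave TCF/LEF shares of 22.2% without control 1, 9.09% without control 2, 7.69% without knockout 1 and 14.3% without knockout 2. RUNX words were in 6 of the 11 (54.5%) against 16.8% of the stretches under all shared regions. Of the other words searched, ETS words were in 36.4% against 21.7% and E-box words in 27.3% against 21.9%. GATA words were in 9.09% against 5.98% and AP-1 words in 0% against 2.66%. Only the TCF/LEF word was planned. Inside the regions the 11 stretches had a median of 197 bases and 53.6% GC, against 250 bases and 62% under all shared regions. The words are matches of letters, not measured binding, and with 11 stretches the interval for TCF/LEF covers the share of all shared regions. Sequences of the other members were not used here.

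The members were open well above the typical region in controls and well below it in knockouts. Over the 1000 members median fold enrichment was 13.7 in control 1 and 13.8 in control 2, and 6.24 in knockout 1 and 6.40 in knockout 2, where the medians of all shared regions ran from 10.3 to 10.6. The median member stood at the 70.3rd percentile of shared regions in each control library and at the 16.5th and 16.9th in the knockouts. In the controls 5 members of each library fell in its lowest decile, while 295 and 285 did so in the knockouts. The difference of knockout minus control, on the centred log2 scale, ran from -2.25 to -0.87 with a median of -1.03, or 2.04-fold lower. It was -1 or below in 555 members, -1.5 or below in 70 and -2 or below in 6.

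**Figure D1:**
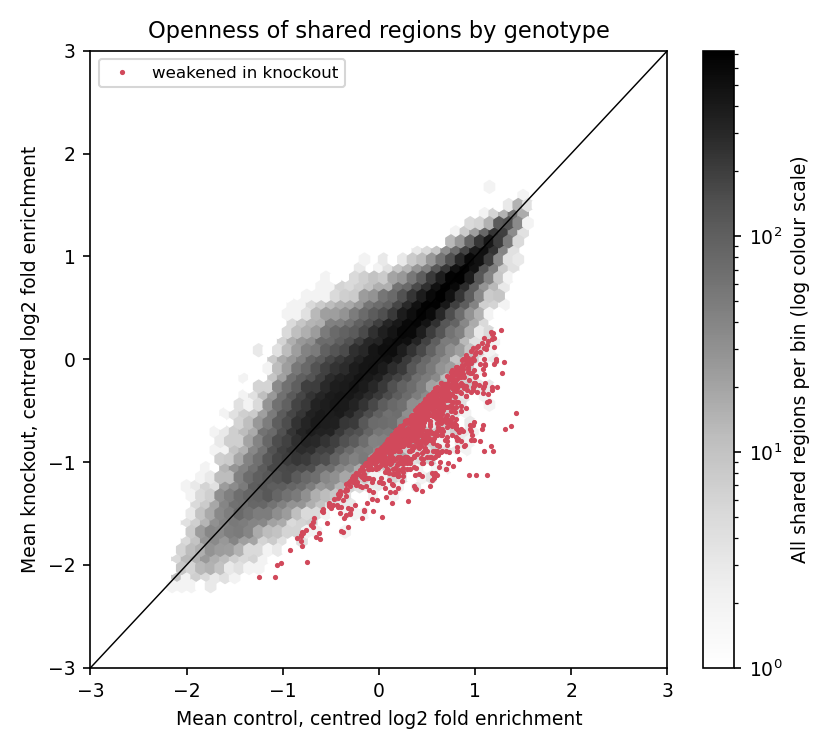
Mean centred log2 fold enrichment of each shared region in the control libraries (horizontal axis) against the knockout libraries (vertical axis), with grey hexagons for all 79684 shared regions on a log colour scale and red points for the 1000 weakened regions. The members form the lower right edge of 1 continuous cloud and do not stand apart from it as a separate cluster.

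Replicates of one genotype lay closer to each other than to the other genotype in nearly every member. The median gap between the control replicates was 0.13 log2 units and between the knockout replicates 0.21, while the median gap from the lowest control to the highest knockout value was 0.85. That gap was wider than both replicate gaps in 926 of the 1000, against 12.8% of all shared regions. The rule ranked regions on these same values, so the wide gap in members follows largely from the choice. Non-overlap alone was common, since both knockout values lay below both control values in 28.7% of all shared regions, and for the members the rule demands it. The choice is a point on a slope. The last member, 5.33 kb from the start of B3gnt2 at chr11:22865665-22866009, had fold enrichments of 12.8 and 16.2 in controls and 7.14 and 9.06 in knockouts. The first region left out, near Ppm1l at chr3:69356836-69357158, had 11.8 and 12.4 against 6.16 and 7.41, and both differed by -0.87. As many as 553 shared regions differed by at least that size in the other direction.

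Regions were also chosen on the difference in one pair of libraries and read in the other pair. Every candidate still needed a peak in all 4 libraries, so the second pair is not fully apart from the choice. The 1000 shared regions with the lowest difference between knockout 1 and control 1 had a median difference of -1.12 there and of -0.83 between knockout 2 and control 2, where 946 of them (94.6%) were below 0. Chosen on replicate 2, the median of -1.13 became -0.85 in replicate 1, and 956 (95.6%) were below 0. Among all shared regions 51.5% and 52.4% were below 0 in the same comparisons. The median size was smaller in the pair not used for ranking, where 363 and 365 of the regions differed by -1 or less.

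The peaks of the members were also narrower in knockouts, with medians of 221 and 224 bp against 335 and 332 bp in controls, where all shared regions had medians of 302 to 316 bp. Their tops barely moved. The median distance between the summits of a control and a knockout peak was 26 bp in members, 17 bp between the control replicates and 28 bp between the knockout replicates, and 95.7% of the summits lay within 100 bp of each other across genotypes. Width and height come from the same peaks as the rule, so they describe the members and support nothing further. Low knockout values were coarse: 488 and 475 of the 1000 members shared their exact fold enrichment with another member in knockout 1 and 2, against 148 and 120 in the controls, and the common knockout values were 0.44 apart. The peak lists give no read depth, so no counting error can be attached to a single value.

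The region with the lowest difference lay inside Ampd1, which encodes the muscle form of AMP deaminase, 17.8 kb from its start at chr3:103091792-103092185. Its fold enrichments were 23.1 and 22.0 in controls and 4.84 and 4.80 in knockouts, 4.77-fold lower. Ampd1 itself was listed at or near 0 in the RNA, with 0.205 TPM in knockout 1 and 0 in the other libraries. Next came a region on chr18:81528889-81529320, 463 kb from the microRNA gene Mir5127, at 20.8 and 20.9 against 5.12 and 4.59. A second member 407 kb from Mir5127 stood at 9.69 and 8.68 against 3.43 and 5.76. The third was at chr5:34822580-34823096 inside Htt, the huntingtin gene, at 23.8 and 23.5 against 6.16 and 5.23, and Htt RNA was 21.1 and 21.6 TPM in controls and 25.4 and 24.9 in knockouts with no call. For every member the rule itself excludes overlap between the genotypes.

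P4ha2, a subunit of the enzyme that hydroxylates prolines in collagen, held the fourth region 4.12 kb past its start at chr11:54105047-54105419. Its openness was 19.2 and 20.4 in controls and 4.84 and 4.80 in knockouts. P4ha2 RNA was lower too, at 25.6 and 23.1 TPM against 9.13 and 4.26, a log2 change of -1.79 ± 0.31 (SE) with limma and a Benjamini-Hochberg adjusted p of 0.0085. That call was lost without either control library, with adjusted p of 0.0506 and 0.0638. The fifth region lay inside Dok6, an adaptor of receptor tyrosine kinases, on chr18:89626785-89627167, at 27.3 and 26.1 against 5.72 and 7.85. Dok6 RNA was listed at 0 in all 4 libraries.

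**Figure D2:**
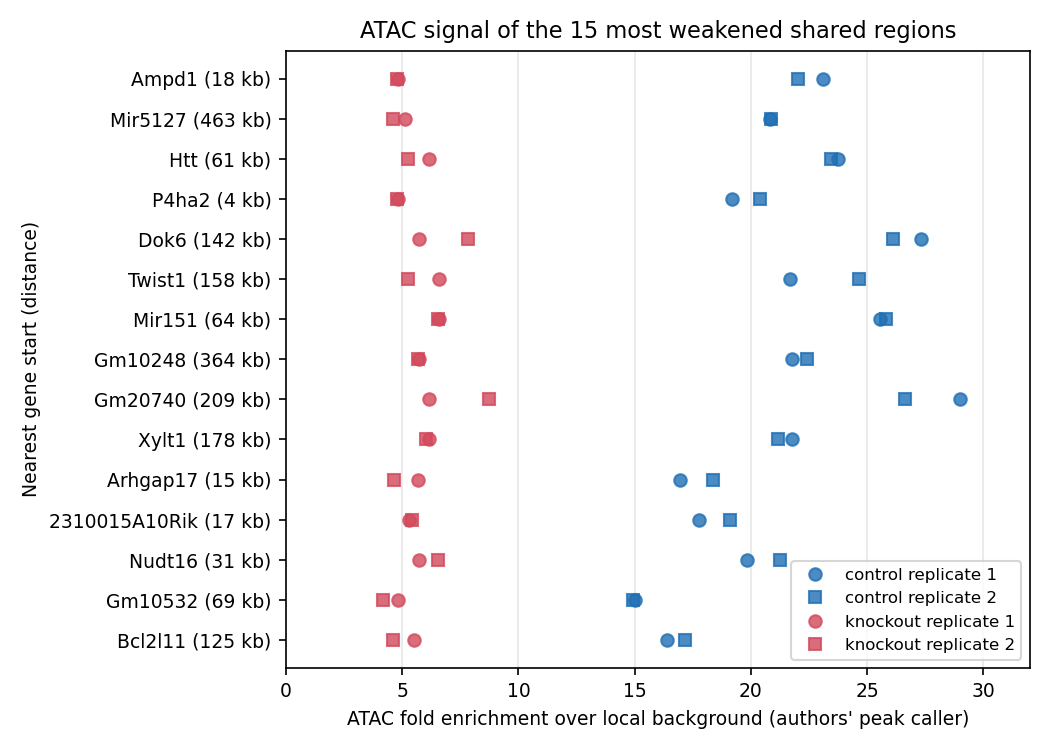
Fold enrichment of the 15 members with the lowest difference, 1 row each, named by the nearest gene start and its distance, with blue for control and red for knockout libraries and circles and squares for replicates 1 and 2. Every control value is at 14.9 or above and every knockout value at 8.72 or below, and the rule itself excludes overlap within a row.

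The gene whose start is nearest was often not the gene that holds the region. The sixth region, chr12:34115768-34116099, was nearest to Twist1, a mesenchymal transcription factor, at 158 kb, but lay in the body of Hdac9, a class IIa histone deacetylase. It stood at 21.7 and 24.7 in controls and 6.60 and 5.23 in knockouts, and a second member in Hdac9 at chr12:34224090-34224467 stood at 16.4 and 17.8 against 9.24 and 8.28. Twist1 RNA rose from 2.06 and 2.17 TPM to 4.90 and 3.82, a log2 change of 0.78 ± 0.21 (SE, limma, Benjamini-Hochberg adjusted p = 0.034), and lost that call when any one library was left out, with the low-value filter dropped and under the replicate block (adjusted p of 0.055 to 0.159). The seventh, 63.8 kb from Mir151, lay inside Ptk2, the gene of focal adhesion kinase, at 25.6 and 25.8 against 6.60 and 6.54. The eighth, 364 kb from Gm10248, lay inside the potassium channel gene Kcnma1 at 21.8 and 22.4 against 5.72 and 5.67. The microRNA gene Mir151 was listed at 0 in the RNA, and Gm10248 was too low to be tested.

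The remaining members of the first 15 were spread over unrelated genes. Fold enrichment was 29.0 and 26.7 in controls against 6.16 and 8.72 in knockouts 209 kb from Gm20740. Inside Xylt1, which starts the sugar chains of proteoglycans, it was 21.8 and 21.2 against 6.16 and 6.02. Arhgap17 had 17.0 and 18.4 against 5.70 and 4.64 in a region within its body. Regions near 2310015A10Rik, Nudt16 and Gm10532 were between 3.40-fold and 3.50-fold lower. None of Xylt1, Arhgap17, 2310015A10Rik or Nudt16 had an RNA call.

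Bcl2l11, which encodes the pro-apoptotic protein BIM, closed this group with a region 125 kb beyond its start at chr2:128250874-128251404. The region stood at 16.4 and 17.2 in controls and 5.50 and 4.62 in knockouts. Its RNA was 34.7 and 33.0 TPM in controls and 13.4 and 14.0 in knockouts, a log2 change of -1.25 ± 0.09 (SE, limma, Benjamini-Hochberg adjusted p = 0.00067). Bcl2l11 and P4ha2 were the members of the first 15 with both a weakened region and a called fall in RNA.

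Weakened regions were rarely at gene starts. Measured to the starts of genes listed in the RNA tables, 28 members (2.8%) lay within 1 kb, against 15058 (18.9%) of all shared regions. For comparison, the 1000 shared regions with the highest difference and both knockout values above both control values, a condition met by 25.0% of shared regions, are called strengthened here, and 66 of them (6.6%) lay within 1 kb. The largest class of members, 43.8%, lay 10 to 50 kb away, against 37.0% of all shared regions. Median distance was 32.3 kb for weakened, 31.4 kb for strengthened and 16.0 kb for all shared regions. Only 9 members covered a start themselves. Distance also differs with signal level, and the members avoid the top of the range: 581 of them fell in the fourth to sixth deciles of mean level and none in the highest. Within those middle deciles 2.24% of weakened, 6.43% of strengthened and 13.6% of all shared regions lay within 1 kb of a start. Gene bodies held 53.4% of members, close to the 53.7% of all shared regions, and the annotation used gives gene extents without exons.

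**Figure D3:**
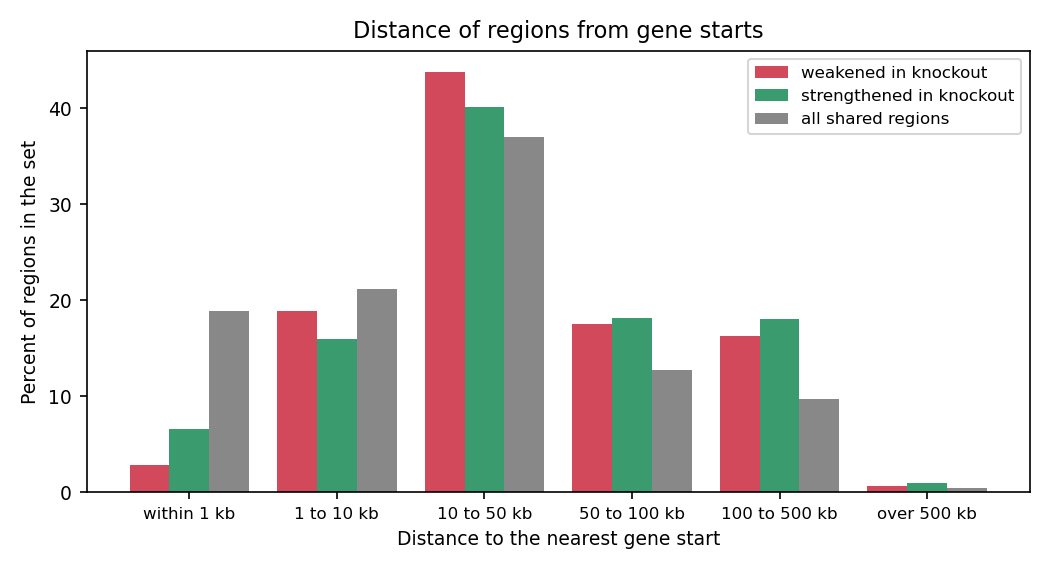
Percent of regions in each class of distance to the nearest gene start, for the 1000 weakened, the 1000 strengthened and all 79684 shared regions. Weakened regions make up 2.8% within 1 kb, where all shared regions make up 18.9%, and both chosen sets exceed the shared regions beyond 10 kb.

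Members were scattered rather than gathered. They lay nearest to 928 genes, of which 862 had 1 member, 60 had 2 and 6 had 3. Another member lay within 50 kb of 8.1% of members, against 8.03% of the other shared regions. Every chromosome but Y held some, from 0.964% of the shared regions of chromosome 7 to 1.55% of those of chromosome 10. Regions with a peak in both controls and neither knockout lay within 50 kb of 42.8% of members and 41.2% of all shared regions. Strengthened regions lay within 50 kb of 10.9% of members and 6.95% of other shared regions, and 122 genes were nearest to regions of both kinds. These made up 13.1% of the genes nearest to weakened regions and 12.9% of those nearest to strengthened ones. Of all genes nearest to a shared region 5.01% were nearest to a strengthened one.

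The 6 genes with 3 members each were Xylt1, Ptprc, Lmod3, Pard3, Zbtb16 and BB123696. Ptprc, which encodes the pan-leukocyte phosphatase CD45, had the strongest of its regions 28.7 kb before its start at chr1:138204047-138204336, with 17.8 and 18.5 in controls and 5.72 and 5.67 in knockouts. Inside the gene, chr1:138162772-138163169 stood at 24.4 and 22.5 against 14.5 and 10.8, and chr1:138157125-138157364 at 7.55 and 7.37 against 4.19 and 4.06. Ptprc RNA was 207 and 232 TPM in controls and 129 and 142 in knockouts, a log2 change of -0.69 ± 0.07 (SE, limma, Benjamini-Hochberg adjusted p = 0.002). The rule fixed the fall of the 3 Ptprc regions. Ptprc RNA, which played no part in the choice, was lower in both knockouts than in either control. The other regions of Xylt1 had 16.4 and 15.4 against 7.39 and 8.14, and 11.7 and 12.9 against 6.60 and 5.67.

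Zbtb16 encodes PLZF, a transcription factor of innate-like lymphocytes, and its 3 regions all lay in its body. They stood at 12.9 and 15.6 against 6.28 and 8.39, at 11.1 and 12.5 against 6.83 and 5.73, and at 10.5 and 9.47 against 5.58 and 5.06. Zbtb16 RNA fell from 14.8 and 15.5 TPM to 10.1 and 9.62 (limma, Benjamini-Hochberg adjusted p = 0.012), a call lost without either control library (adjusted p of 0.0562 to 0.0703). Pard3, a cell polarity gene, went the other way: its 3 internal regions were less open in knockouts, the first at 16.0 and 17.8 against 8.80 and 5.67, while its RNA rose from 2.04 and 1.16 TPM to 5.54 and 4.53 (limma, Benjamini-Hochberg adjusted p = 0.015). The rise lost its call without control 2 or without knockout 1, with adjusted p of 0.0587 to 0.0825. The 3 regions assigned to Lmod3 lay in the body of Frmd4b, and the strongest had 16.5 and 17.1 against 5.28 and 6.10. Slc16a7, a monocarboxylate transporter with 2 members, had 17.9 and 16.1 against 5.28 and 5.23 in the stronger, and its RNA fell from 14.3 and 11.1 to 7.80 and 7.77 TPM (limma, Benjamini-Hochberg adjusted p = 0.028), a call lost in 3 of the 4 fits with one library left out and with the low-value filter dropped (adjusted p of 0.0594 to 0.12). Lmod3 and BB123696 were too low in RNA to be tested.

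RNA gave the measure that the choice of regions did not use. In a bulk sample a lower RNA level in each cell and fewer cells of an expressing type cannot be told apart, and the same holds for openness. Of the 928 nearest genes, 583 had a mean of at least 1 TPM and were tested. In the knockout 125 of them were lower (21.4%) and 138 higher (23.7%), against 14.7% lower and 25.2% higher of all 13228 tested genes. Genes nearest to strengthened regions were lower in 16.8% and higher in 26.8% of 594. The median log2 change was 0.01 for genes nearest to weakened regions, 0.10 for those nearest to strengthened regions and 0.09 for all tested genes. Most genes beside a weakened region, 320 of 583, had no call in either direction, as did 7957 of all 13228 tested genes. A fall by at least 1 log2 unit was seen in 39 (6.69%), against 3.85% of all tested genes, and a rise of that size in 25 (4.29%) against 3.58%.

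The split of calls moved with the scaling of the libraries. When the RNA libraries were scaled by median ratios, 153 nearest genes were lower and 108 higher, or 26.2% and 18.5%, with 18.1% and 19.5% for all tested genes. With quantile normalization the counts were 144 and 114, or 24.7% and 19.6%, with 17.4% and 19.7% overall. Beside strengthened regions the share of lower genes was 16.8% in the main fit, 20.6% with median ratios and 20.2% with quantile normalization. It too exceeded that of all tested genes under each scaling, so an excess over all tested genes is not particular to weakened regions. Beside weakened regions the share of lower genes was above both under each scaling. The counts themselves rest on few libraries: they were 73 lower and 86 higher without control 1, 82 and 82 without control 2, 100 and 77 without knockout 1, and 99 and 97 without knockout 2. The corresponding shares lower were 12.5, 14.2, 17.1 and 16.9%, against 8.41, 9.06, 10.9 and 11.3% of all genes tested in those fits.

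Among genes near a weakened region the share of lower genes was highest for the closest starts but did not decline evenly with distance. Among the 131 tested genes whose start lay up to 10 kb from a weakened region, 36 were lower (27.5%) and 27 higher (20.6%). For the 137 up to 10 kb from a strengthened region the order was opposite, with 18 lower (13.1%) and 39 higher (28.5%), and genes up to 10 kb from any shared region were lower in 15.1% and higher in 25.7%. The last of these is made up largely of genes with a shared region within 1 kb, where members are few. At 1 to 10 kb alone, genes were lower in 26.9% beside weakened regions and in 19.3% beside all shared regions. Between 10 and 50 kb, genes beside weakened regions were lower in 20.1% and higher in 25.0%, against 17.4% and 24.3% for all shared regions of that class. From 50 to 100 kb they were lower in 23.3% and higher in 18.4%, against 19.6% and 24.4%. From 100 to 500 kb they were lower in 14.8% and higher in 27.3%, against 19.5% and 24.0%. The size of the ATAC difference did not order the shares in that way. Those nearest to the 100 strongest members were lower in 18.03% and higher in 21.3%, and those of the 700 weakest in 22.2% and 24.1%.

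**Figure D4:**
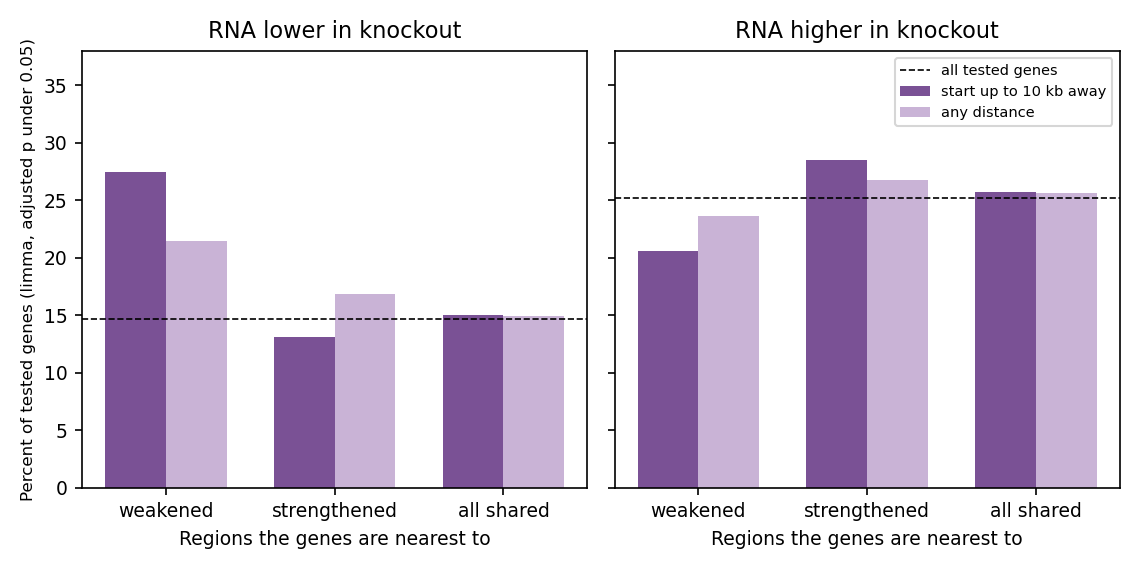
Percent of tested genes with lower (left) or higher (right) RNA in the knockout, by the kind of region they are nearest to, for starts up to 10 kb away (dark) and at any distance (light), with dashed lines at 14.7% and 25.2% for all tested genes. Beside weakened regions up to 10 kb away 27.5% of genes were lower, and beside strengthened ones 13.1%.

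Promoter members were few. Among tested genes with a start within 1 kb of any shared region 14.9% were lower and 26.9% higher. Of 28 genes with a start within 1 kb of a member 12 were tested. Among these 4 were lower (33.3%), 3 were higher (25%) and 5 had no call. The count of lower genes was 1 without control 1 or without knockout 2 and 2 without control 2. Akna, which encodes an AT-hook protein, had a region 0.841 kb before its start at 5.35 and 4.88 in controls and 2.85 and 2.52 in knockouts, and its RNA fell from 109 and 109 to 61.3 and 64.8 TPM (limma, Benjamini-Hochberg adjusted p = 0.00067). Elf4, an ETS-family factor, had 7.45 and 7.80 against 3.78 and 4.11 with RNA at 57.0 and 52.3 against 45.1 and 41.1 TPM (limma, Benjamini-Hochberg adjusted p = 0.024), a call lost without control 1, control 2 or knockout 2 (adjusted p of 0.0515 to 0.112). Pik3r6, a regulatory subunit of PI3-kinase gamma, had 15.3 and 14.2 against 8.57 and 7.84 with RNA at 4.66 and 4.83 against 2.53 and 2.65 TPM (limma, Benjamini-Hochberg adjusted p = 0.032), a call that did not survive leaving out any library. Dropping the low-value filter or adding the replicate number as a block ended it too (adjusted p of 0.0583 to 0.123 over these alternatives). The microRNA gene Mir5098, inside Rest, was lower at 14.99 and 6.92 against 3.38 and 1.38 TPM (limma, Benjamini-Hochberg adjusted p = 0.025), without its call in 3 alternatives, those without control 1, without knockout 2 and with no filter on low values (adjusted p of 0.0549 to 0.114).

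The other called promoter genes rose. Cad, the enzyme that begins pyrimidine synthesis, had a region 0.534 kb inside its start at 6.91 and 5.95 in controls and 3.58 and 3.45 in knockouts, while its RNA rose from 41.5 and 46.6 to 92.7 and 86.1 TPM (limma, Benjamini-Hochberg adjusted p = 0.00091). Il1rl1, the receptor of interleukin-33 found on mast cells and type 2 innate lymphoid cells, had 11.5 and 10.2 against 6.16 and 4.58 at chr1:40430121-40430510, while its RNA rose from 2.41 and 3.14 to 11.3 and 9.27 TPM (limma, Benjamini-Hochberg adjusted p = 0.0028). Marveld1 rose from 11.3 and 12.3 to 18.6 and 20.2 TPM (limma, Benjamini-Hochberg adjusted p = 0.0066) beside a region at 7.06 and 8.45 against 3.86 and 3.91. In these 3 genes the openness of the weakened region within 1 kb of the start and the RNA went in opposite directions. Other regions at these starts were not examined.

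Of the 18844 genes nearest to any shared region 4.92% were nearest to a weakened region and 5.01% to a strengthened one, and the counts of listed genes that follow stand beside those shares. The shares take no account of how many shared regions each gene is nearest to, and some listed genes were nearest to none. Among 39 genes of the T lineage, 7 were nearest to a weakened region, with 9 regions in all, and 4 were nearest to a strengthened region (Ccr9, Cd28, Prkcq and Runx1). Of the 32 tested genes of that list 28 were lower in the knockout and the other 4 had no call. The RNA calls of this and the later lists stand beside 14.7% lower and 25.2% higher of all 13228 tested genes. Bcl11b, the zinc-finger factor that seals T-cell commitment, held a region 10.04 kb from its start at chr12:107993084-107993372. The region stood at 14.6 and 14.6 in controls and 7.48 and 6.98 in knockouts. Bcl11b RNA was 9.30 and 8.16 TPM in controls and 0.334 and 0.238 in knockouts, a log2 change of -2.92 ± 0.21 on the log2(TPM + 1) scale (SE, limma, Benjamini-Hochberg adjusted p = 0.00071). The RNA was under 1 TPM in both knockouts. The region has a peak in both knockouts because the rule keeps only regions with a peak in all 4 libraries.

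Gata3, the factor that specifies T cells with TCF1, had 2 members far beyond its start. The region 304 kb away at chr2:9574224-9574492 had 15.6 and 12.9 in controls and 5.28 and 7.41 in knockouts. The other, 271 kb away at chr2:9607682-9608026, had 20.4 and 20.0 against 10.6 and 10.5. Gata3 RNA was 45.4 and 43.4 TPM in controls and 9.10 and 10.2 in knockouts, a log2 change of -2.09 ± 0.10 (SE, limma, Benjamini-Hochberg adjusted p = 0.0003). Nearness to a start is all that ties these distal regions to Gata3 here.

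Runx1, the blood-wide partner of T-lineage factors, held a region at chr16:92748267-92748689 with 13.8 and 13.6 in controls and 5.02 and 6.90 in knockouts. Its RNA fell from 102 and 94.9 to 64.3 and 61.8 TPM (limma, Benjamini-Hochberg adjusted p = 0.0014). Satb1, a chromatin organiser of thymocytes, had 13.6 and 15.01 against 7.46 and 6.63, with RNA at 78.7 and 49.8 against 23.7 and 31.4 TPM (limma, Benjamini-Hochberg adjusted p = 0.015), a call lost without control 1 or without knockout 1 (adjusted p of 0.0512 to 0.0683). Ikzf1, which encodes the lymphoid factor Ikaros, lay near the edge of the choice with 9.30 and 9.37 against 5.11 and 5.31, and its RNA fell from 123 and 121 to 94.0 and 95.2 TPM (limma, Benjamini-Hochberg adjusted p = 0.0033). A region 64.6 kb from Sh2d1a, the adaptor SAP of T and natural killer cells, stood at 13.6 and 17.3 against 11.0 and 5.67, and Sh2d1a RNA was too low to be tested. The 2 knockout values of the Sh2d1a region lay far apart, though both were below the controls, as the rule demands.

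Lef1, floxed in the knockout group, was itself beside members. It held a region 7.50 kb past its start at chr3:131117795-131118332, with 18.3 and 17.5 in controls and 8.36 and 9.58 in knockouts. A second, 163 kb before the start at chr3:130947314-130947615, had 13.2 and 11.4 against 7.14 and 5.93. Lef1 RNA changed by 0.09 ± 0.26 on the log2 scale (SE, limma, Benjamini-Hochberg adjusted p = 0.80), so no difference was detectable at this low level. Tcf7 was nearest to no member. Of the 18 genes listed for TCF/LEF factors and Wnt signalling, 4 were nearest to 5 members in all, against 4.92% of the genes nearest to any shared region. Ccnd1 and Tcf7l2 were nearest to strengthened regions. Tcf7l2, a further member of the family, had 17.0 and 16.9 against 5.89 and 5.94 in its body, with RNA between 17.8 and 19.7 TPM in all 4 libraries. Znrf3, a Wnt-receptor ubiquitin ligase, had 14.1 and 16.5 against 5.28 and 6.10, with RNA at 4.16 and 5.18 against 7.51 and 6.59 TPM and no call. Tle4, a corepressor that binds TCF factors, had 10.9 and 11.3 against 4.84 and 5.93, and its RNA fell from 32.4 and 30.4 to 19.7 and 22.4 TPM (limma, Benjamini-Hochberg adjusted p = 0.009), a call lost without control 1 (adjusted p = 0.0608).

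**Figure D5:**
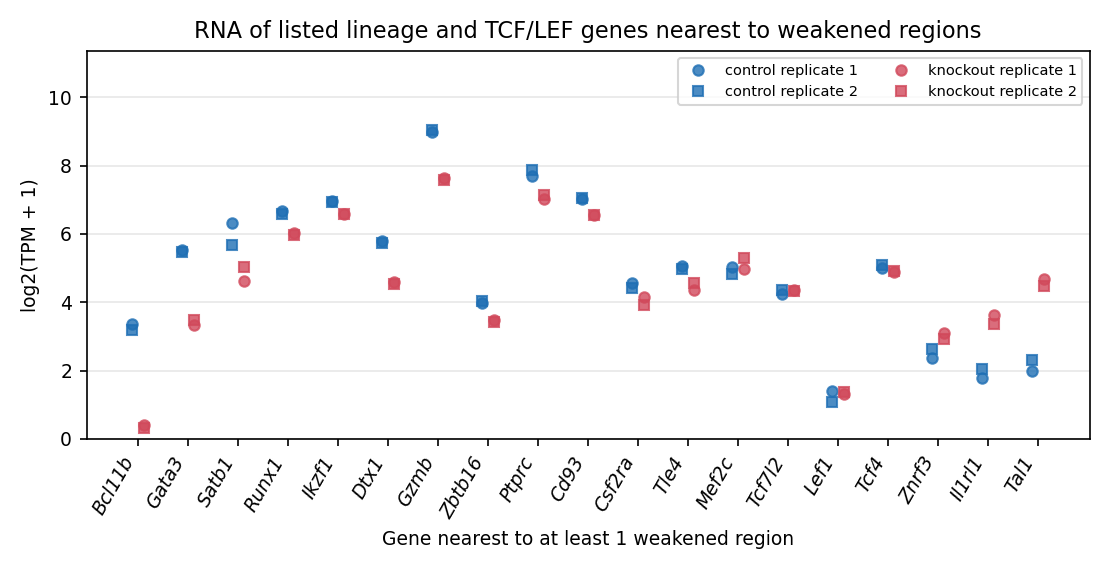
RNA as log2(TPM + 1) of 19 named genes nearest to at least 1 weakened region, with blue for control and red for knockout libraries and circles and squares for replicates 1 and 2. Bcl11b, Gata3, Dtx1 and Gzmb lie clearly lower in both knockouts, Il1rl1 and Tal1 clearly higher, and Lef1, Tcf7l2, Tcf4 and Mef2c overlap or nearly touch.

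Notch signalling drives these cultures. Among 14 Notch target genes 1 was nearest to a member, a count near the 4.92% of the genes nearest to any shared region. Dtx1, which encodes the Notch modulator Deltex, held a region 25.6 kb from its start at chr5:120685679-120686069 with 17.7 and 16.4 in controls and 8.12 and 9.90 in knockouts. Its RNA fell from 54.8 and 51.9 to 23.0 and 22.2 TPM, a log2 change of -1.20 ± 0.07 (SE, limma, Benjamini-Hochberg adjusted p = 0.0005). Of the 11 tested genes of that list 8 were lower and 3 had no call.

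Genes of natural killer and innate lymphoid cells were also beside members, with 5 of 23 genes and 7 regions. Of the genes nearest to any shared region 4.92% were. Among the 23, 1 gene, Zbtb16, was nearest to a strengthened region. Gzmb, a cytotoxic granule protease, had a region 25.4 kb before its start at chr14:56287738-56288193 with 21.6 and 20.3 in controls and 11.7 and 11.1 in knockouts. Its RNA fell from 507 and 524 to 199 and 191 TPM (limma, Benjamini-Hochberg adjusted p = 0.00013). Regions near Ncr1, a natural killer receptor, and Tox2, a factor of the TOX family, had 18.8 and 22.5 against 12.3 and 7.85, and 16.3 and 12.3 against 6.60 and 7.41, and both genes were too low in RNA to be tested. Zbtb16 and Il1rl1, described above, complete the group. In that list 9 of 14 tested genes were lower and 1 was higher.

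Members also lay beside genes of other fates. Of 28 stem and progenitor genes, 4 were nearest to a member, namely Runx1, Mef2c, Cd93 and Tal1. As many, Gata2, Mecom, Runx1 and Zfpm1, were nearest to a strengthened region. Mef2c, a factor of early lymphoid and myeloid progenitors, had a strongly weakened region 44.9 kb before its start at chr13:83458667-83459145, with 20.9 and 20.0 in controls and 7.04 and 6.54 in knockouts, and RNA of 31.7 and 27.4 against 30.5 and 38.1 TPM with no call. Tal1, a factor of stem and erythroid cells, had 6.36 and 6.58 against 3.42 and 3.82 inside its body, while its RNA rose from 2.97 and 3.96 to 24.4 and 21.2 TPM, a log2 change of 2.42 ± 0.17 (SE, limma, Benjamini-Hochberg adjusted p = 0.00066). Cd93, a surface protein of early progenitors, fell in RNA from 130 and 133 to 93.2 and 93.6 TPM (limma, Benjamini-Hochberg adjusted p = 0.0013) beside a region at 12.5 and 12.6 against 7.20 and 6.56. That list as a whole had 10 lower and 13 higher of 28 tested genes.

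Single members lay beside 1 gene of several further lists, counts to set beside the 4.92% of the genes nearest to any shared region. Csf2ra, a subunit of the GM-CSF receptor and the only one of 25 myeloid genes, had 13.9 and 15.8 against 8.13 and 6.45, and its RNA fell from 22.6 and 20.3 to 16.7 and 14.1 TPM (limma, Benjamini-Hochberg adjusted p = 0.035), a call lost in 3 of the 4 fits with one library left out and with the low-value filter dropped (adjusted p of 0.0637 to 0.158). In that list 7 genes were lower and 10 higher of 25 tested, and 3 genes, Cebpb, Fcgr2b and Ms4a3, were nearest to a strengthened region. Tcf4, the E protein of plasmacytoid dendritic cells, had 15.2 and 16.8 against 7.04 and 6.98 at 122 kb, with RNA between 28.7 and 33.3 TPM in all libraries. Egr2, an early response gene listed for handling stress, had 14.3 and 16.5 against 7.48 and 8.28, and its RNA of 1.63 and 1.43 against 1.31 and 0.342 TPM had no call. Egr2 was also nearest to a strengthened region. Of the 18 tested handling-stress genes 13 were lower and 2 higher. Among them, named after their values were seen, the immediate early gene Fos was at 401 and 392 TPM in controls and 91.5 and 88.4 in knockouts, and Jun at 652 and 637 against 306 and 312. The part of this difference in the weakened regions was not tested. None of the 10 B-lineage genes was nearest to a member.

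RNA of genes listed as markers of other cell types differed between the groups. Summed over 8 stromal markers it was 475 and 504 TPM in controls and 1235 and 1051 in knockouts, with 7 of 8 higher. None of the 18 listed stromal genes was nearest to a weakened region, and 2, Col1a1 and Col1a2, were nearest to a strengthened one. The mesenchymal gene Twist1, nearest to 2 members, is not on that list. Over 4 neutrophil markers (Mpo, Elane, Prtn3 and Ctsg) the sum was 1361 and 1361 against 3014 and 2941, with all 4 higher. Mpo, at 980 and 979 TPM in controls and 2256 and 2196 in knockouts, made up most of these sums. The 25 listed myeloid genes went both ways, with 7 lower and 10 higher. Over 8 T-lineage markers the sum was 492 and 491 against 51.7 and 50.9. Over 6 mast cell markers the sum was 208 and 208 against 353 and 361, with 5 higher and 1 lower. The lower one, Cpa3, made up most of the control sums, at 179 and 181 TPM in controls and 149 and 137 in knockouts. Over 5 natural killer and innate lymphoid markers the sum was 660.0 and 674 against 241 and 236, with 3 of 4 tested lower. Gzmb, at 507 and 524 TPM, and Gzma, at 134 and 126, made up most of the control sums. Klrd1 had no call, at 3.50 and 4.52 TPM in controls and 3.62 and 4.65 in knockouts, and Ncr1 was too low to be tested. The B markers Cd79a and Pax5 were under 1 TPM in all libraries. The sorting markers Kit and Ptprc were lower and Cd44 had no call, with a sum of 552 and 579 against 389 and 404. The part of these shifts in the weakened regions was not tested.

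A few further genes beside members had larger changes in RNA and were chosen after their values were seen. Dpp4, a surface peptidase of T cells, had a region inside Slc4a10 118 kb away at 24.1 and 25.9 against 11.0 and 15.04, and its RNA fell from 174 and 180 to 20.7 and 23.6 TPM. Ctla4, the inhibitory receptor, had 13.0 and 11.5 against 7.04 and 5.67 with RNA at 11.7 and 14.7 against 1.17 and 1.73 TPM. Epcam, an adhesion protein, had 18.1 and 18.3 against 5.61 and 7.78 with RNA at 5.06 and 3.79 against 0.496 and 0.141 TPM. Tmem178 held a region at 13.8 and 14.8 against 8.36 and 7.41, while its RNA rose from 0.527 and 0.626 to 7.89 and 9.10 TPM. In each of the 4 genes limma's Benjamini-Hochberg adjusted p was at most 0.004. Of all 13228 tested genes 14.7% were called lower and 25.2% higher. The 4 genes were picked for the size of their RNA change, so these values say nothing about the regions.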

How the data were processed

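RNA abundance and ATAC-seq openness were measured in 2 control and 2 knockout libraries each. The authors deposited 1 gene table per RNA library, with TPM, FPKM and coverage columns, and 1 peak list per ATAC library. HISAT2, StringTie, Bowtie2, MACS2 and the mm10 build are named in the submitters' processing notes, without versions; no settings for them were found in the labels or file headers. The fold ratio of each peak is the authors' deposited value, and the deposited −log10 p and −log10 q values served for alternatives. Deposited FPKM, coverage signal and the integer peak score were not used.

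TPM values, which sum to 1000000 per library and keep no read depth, were analysed as log2(TPM + 1) for genes with a mean of at least 1 TPM, with limma 3.58.1 in R 4.3.3 (genotype as the only term, trended variance) and Benjamini-Hochberg adjustment over 13228 genes at a threshold of 0.05. Fold changes on that scale understate the change of low genes. On simulated data of 13228 genes this fit recovered 94% of 100 genes changed by 1 log2 unit and 100% of 100 changed by 2, and called 6 unchanged genes. Regions were built in Python 3.11.15 with pandas 2.3.3, chrM left out, and each was assigned to the nearest of the gene starts listed in the RNA tables. Peak lists held 103009 to 111007 peaks. Centred values correlated at 0.94 within either genotype and 0.86 between genotypes, across regions, which share libraries.

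Named genes are Tcf7 and Lef1, those nearest to the 15 lowest members, the 10 nearest to the most members, listed genes nearest to a member, and up to 5 falls and 5 rises at promoters. One gene that the rule names is not reported here. Words were to be searched around summits; with no genome used here they were searched in RefSeq promoter windows, over the 250 bases before a start that lay in the region. The members and gene lists were chosen with earlier results of these data known.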

Additional observations from a re-analysis of the deposited data

How the results depend on the processing

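Leaving out one RNA library at a time, each lone remaining library being assumed to vary like the other group, gave 1114 to 1502 lower and 2062 to 2320 higher genes, and 1 to 3 lower genes within 1 kb. With any RNA or ATAC library left out there were 73 to 139 lower and 77 to 141 higher genes nearest to weakened regions. With no filter on low values the count of lower genes within 1 kb was 2. Leaving out one ATAC library gave 1000 regions that overlapped 623 to 793 of the weakened ones, fewest without knockout 1. The median difference was -1.93 on the −log10 p column, which is another scale. Chosen on one replicate number and read in the other, an alternative added after the data were seen, it was -0.83 and -0.85. Other ATAC alternatives overlapped 726 to 988 members. Replicate numbers did not pair the libraries (correlation of deviations 0.0043 in RNA and -0.0023 in ATAC). A replicate block gave 1798 lower and 3072 higher genes, 112 and 126 nearest to weakened regions, and ended the calls of Pik3r6 and Twist1 among named genes. No called gene among those named changed direction. Of the uncalled ones, Lef1 went from 0.09 to -0.08 without control 2, and Tcf7l2 from 0.05 to between -0.03 and -0.02 under both other scalings and without control 1. The planned search of 100 bases around summits was not run, and neither dataset gives read depth.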
